A study of Saccharomyces cerevisiae with 18 samples.

Results

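Trehalose and glycogen are the 2 storage carbohydrates of budding yeast, and 10 genes of their metabolism were followed here: TPS1, TPS2, TPS3, TSL1 and NTH1 for trehalose, and GSY1, GSY2, GLC3, GPH1 and GDB1 for glycogen. Each was taken as the Saccharomyces cerevisiae probe set that carries its symbol in the array's annotation, so that 10 of the 5449 genes measured are described, with 1 probe set each. The study hybridised RNA of 18 cultures to Affymetrix yeast arrays, 3 biological replicates in each of 6 groups. The groups were the strains AAC, AAP and NC, each grown in anaerobic and in aerobic batch fermentations. AAC carries an alpha factor leader fused to amylase behind the TPI1 promoter (pTPI1) and is described as the high amylase producer. AAP carries the same kind of leader and amylase behind the TEF1 promoter (pTEF1). NC carries a plasmid with the TPI1 promoter and no amylase. All 3 strains share the host CEN. PK 530-1C and a 2 μm plasmid with the marker POT1, the Schizosaccharomyces pombe gene for triose phosphate isomerase, so that every control culture also carries the plasmid. Fermenters held 500 ml of SD-SCAA medium, stirred at 600 rpm at 30 °C, and cells were taken near an optical density of 1. Each strain is a single construct, and RNA came from whole cultures, so that fewer cells with a transcript and less transcript per cell cannot be told apart.

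Trehalose is a disaccharide that yeast makes from UDP-glucose and glucose 6-phosphate, and glycogen is a branched glucose polymer built from UDP-glucose. Both accumulate when growth slows or nutrients run short and are broken down when growth resumes. In the trehalose branch Tps1 is the trehalose 6-phosphate synthase, Tps2 the phosphatase that removes the phosphate, Tps3 and Tsl1 are the regulatory subunits of the same complex, and Nth1 is the neutral trehalase that splits trehalose. In the glycogen branch Gsy1 and Gsy2 are the glycogen synthases, Glc3 is the branching enzyme, Gph1 the phosphorylase that releases glucose 1-phosphate, and Gdb1 the debranching enzyme. Many of these genes are known targets of the general stress response, which the cAMP-dependent protein kinase A (PKA) holds down in cells growing on glucose.

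All values are the authors' log2 signals, and all 10 genes lay above background on every array, background being set per array at percentile 95 of its S. pombe probes (5.55 to 5.60). GPH1 lay just above it in aerobic NC cultures, at 5.67, 5.67 and 5.62. Its differences that use these arrays thus rest on values near background. Anaerobic markers followed the labels, with TIR1, a cell wall mannoprotein, at 11.93, 12.11 and 12.12 in anaerobic AAC, AAP and NC cultures and at 5.65, 5.73 and 5.76 in the aerobic ones. The host's own TPI1 was below background on all 18 arrays. The array labelled AAP aerobic replicate 3 stood apart. Its S. pombe tpi1 signal, which reads the plasmid marker, was 9.24, against 12.42 and 12.38 on the other AAP aerobic arrays. On the AAC aerobic arrays this signal was 9.32, 9.41 and 8.98, and on the NC aerobic arrays 6.17, 6.35 and 6.20. The marker transcript thus differed between strains. In anaerobic cultures it averaged 9.92 in AAC, 12.45 in AAP and 6.71 in NC. Its part in the strain differences below was not tested. The mean correlation of AAP aerobic replicate 3 across probe sets was 0.993 with the AAC aerobic arrays and 0.978 with those of its own group. Differences of the 10 genes that use aerobic AAP cultures, and counts of other lists that do, are therefore given with and without it. All groups share 1 estimate of the spread, so this array also enters the tests of contrasts that do not use aerobic AAP cultures.

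**Figure D1:**
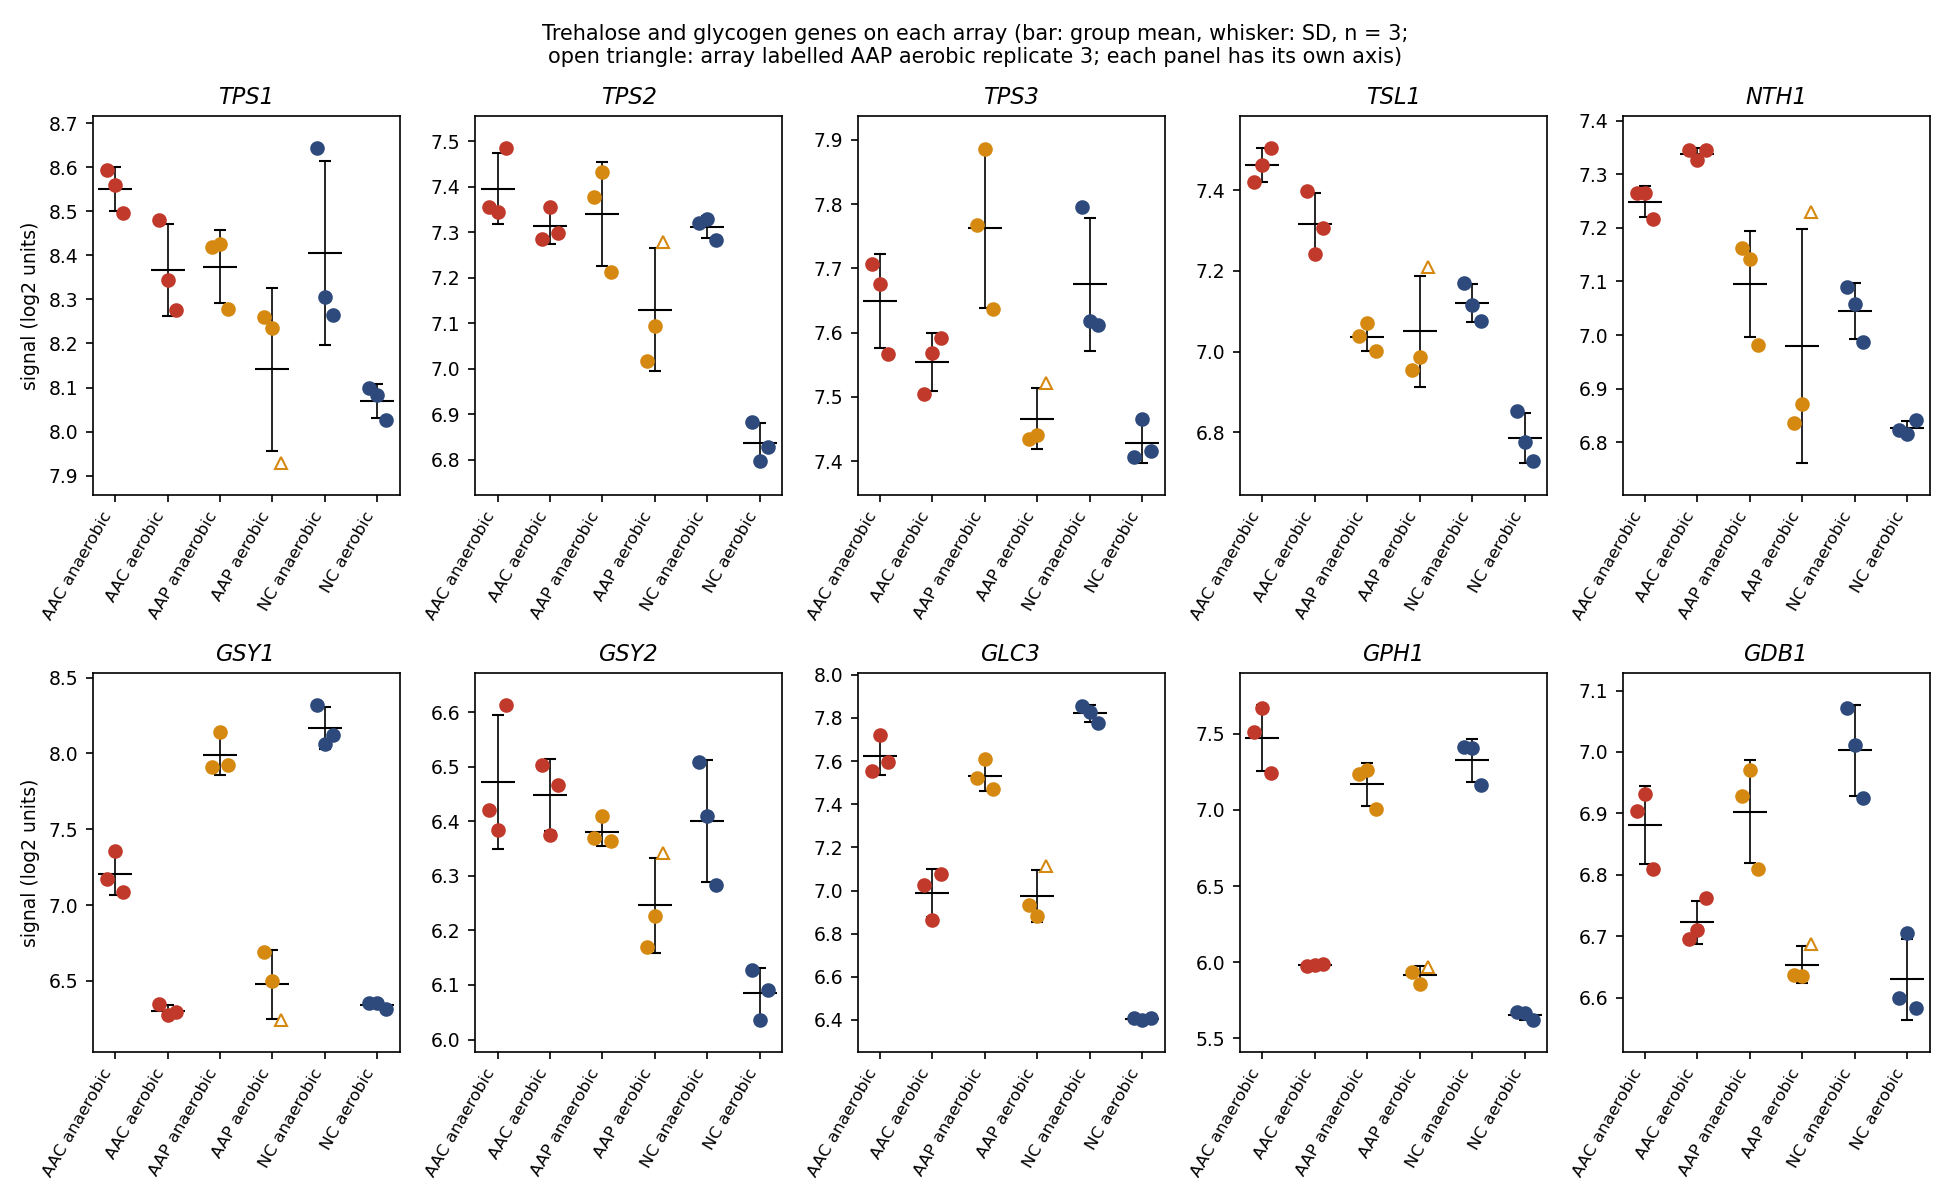
Log2 signal (vertical axis) of the 10 genes on each of the 18 arrays, with 1 panel and vertical scale per gene, 1 point per array, bars at group means and whiskers of SD (n = 3). The open triangle is AAP aerobic replicate 3. GPH1, GSY1, GLC3 and GDB1 have all 9 anaerobic arrays above all 9 aerobic arrays, while the anaerobic and aerobic ranges of the other 6 genes overlap.

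Cultures without oxygen had higher transcript levels of the glycogen genes GPH1, GSY1 and GLC3 in all 3 strains. The glycogen genes GDB1 and GSY2 and the trehalose genes moved by much smaller amounts. GPH1, which encodes glycogen phosphorylase, had 7.51, 7.67 and 7.24 in anaerobic AAC cultures, against 5.98, 5.98 and 5.99 in aerobic ones. In AAP it had 7.24, 7.26 and 7.003 in anaerobic cultures, against 5.94, 5.86 and 5.97 in aerobic ones, and in NC 7.41, 7.41 and 7.16 in anaerobic cultures, against 5.67, 5.67 and 5.62 in aerobic ones. The anaerobic and aerobic ranges were separated in each strain. Of all probe sets, 27.5% in AAC, 25.8% in AAP and 27.5% in NC had all anaerobic arrays above the aerobic ones. The shares with all below were 29.6%, 20.5% and 35.3%. Averaged over the strains, GPH1 rose by 1.47 on the log2 scale (SE 0.054, 2.77-fold, limma adjusted p = 1.287e-12), which placed it 60th from the highest of 5498 probe sets, and by 1.48 without AAP aerobic replicate 3.

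GSY1, the gene of the minor glycogen synthase isoform, had 7.18, 7.36 and 7.09 in anaerobic AAC cultures, against 6.34, 6.27 and 6.29 in aerobic ones. In AAP it had 7.91, 8.14 and 7.92 in anaerobic cultures, against 6.69, 6.50 and 6.24 in aerobic ones, and in NC 8.32, 8.06 and 8.12 in anaerobic cultures, against 6.35, 6.35 and 6.32 in aerobic ones. The anaerobic AAC arrays lay below all other anaerobic arrays. Aerobic AAC and NC arrays overlapped, and aerobic AAP arrays overlapped them only through replicate 3, at 6.24. The mean rise was 1.42 (SE 0.0586, 2.67-fold, limma adjusted p = 5.715e-12), 66th from the highest, and 1.38 without that array.

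GLC3, the branching enzyme gene, had 7.56, 7.72 and 7.59 in anaerobic AAC cultures, against 7.03, 6.87 and 7.08 in aerobic ones. In AAP it had 7.52, 7.61 and 7.47 in anaerobic cultures, against 6.94, 6.88 and 7.11 in aerobic ones, and in NC 7.86, 7.83 and 7.78 in anaerobic cultures, against 6.41, 6.40 and 6.41 in aerobic ones. In aerobic cultures the NC arrays lay below those of both amylase strains, which overlapped each other. The mean rise was 0.87 (SE 0.038, 1.83-fold, limma adjusted p = 1.152e-11), and 0.89 without AAP aerobic replicate 3. GDB1, which encodes the debranching enzyme, ran from 6.81 through a median of 6.93 to 7.07 over the 9 anaerobic arrays, against 6.58, 6.69 and 6.76 over the 9 aerobic arrays, and its mean rise was 0.26 (SE 0.0305, 1.20-fold, limma adjusted p = 2.076e-06), and 0.27 without that array. The 4 genes whose 9 anaerobic arrays all lay above the 9 aerobic ones compare with 8.84% of all probe sets that did so.

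In the other 6 genes the anaerobic and aerobic ranges overlapped, and none rose as much as GPH1, GSY1 or GLC3. GSY2, the major glycogen synthase isoform, ran from 6.28 through 6.41 to 6.61 over the anaerobic arrays, against 6.04, 6.23 and 6.50 over the aerobic ones, a mean rise of 0.16 (SE 0.0388). Its paralog GSY1 rose by 1.42 in the same contrast. Of the trehalose genes, the mean rise was 0.25 for TPS1 (SE 0.0563), 0.26 for TPS2 (SE 0.0383), 0.21 for TPS3 (SE 0.0366) and 0.16 for TSL1 (SE 0.0355). Without AAP aerobic replicate 3 these rises were 0.17 for GSY2, 0.22 for TPS1, 0.28 for TPS2, 0.22 for TPS3 and 0.18 for TSL1, and all passed. NTH1, the trehalase gene, did not pass, with a mean difference of 0.08 (SE 0.0454, limma adjusted p = 0.1314), and without AAP aerobic replicate 3 it passed with a difference of 0.12.

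**Figure D2:**
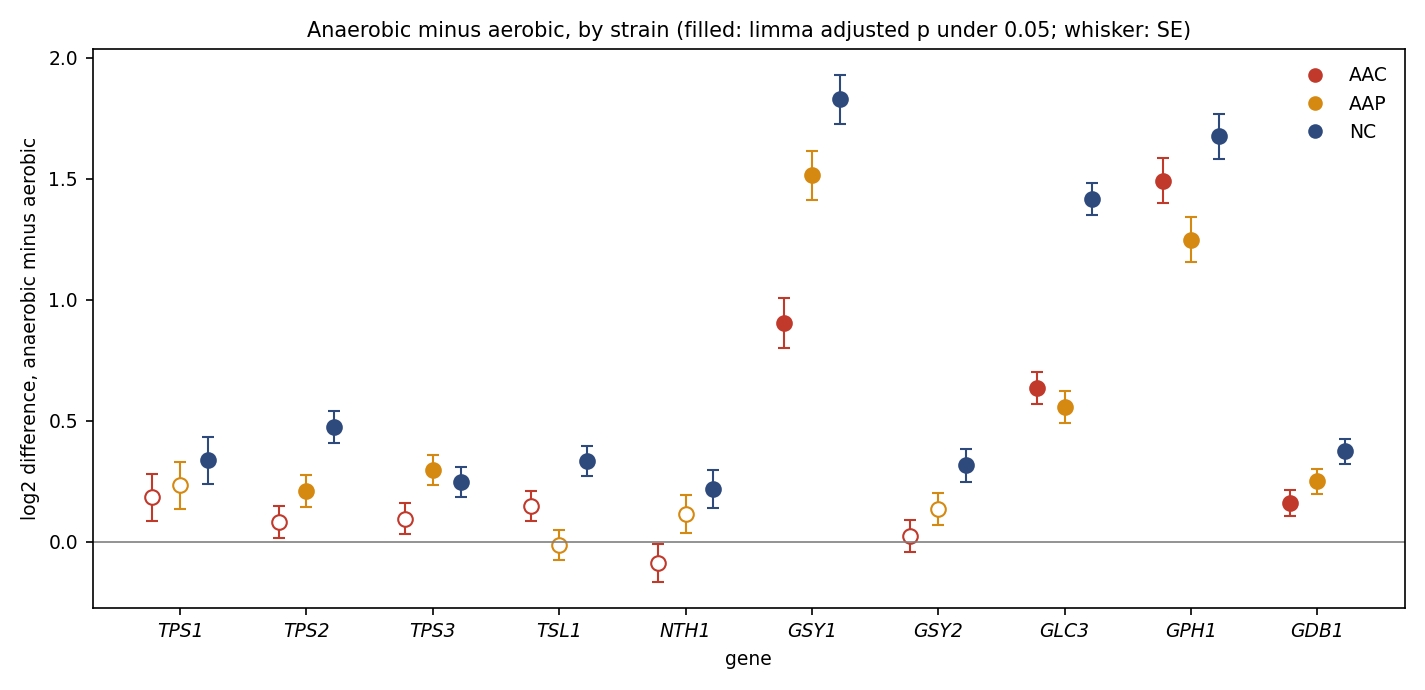
Log2 difference, anaerobic minus aerobic (vertical axis), of each gene (horizontal axis) in AAC, AAP and NC, with standard errors from the limma fit and filled points where the test passed. GPH1, GSY1 and GLC3 lie between 0.56 and 1.83, and the other 7 genes between -0.09 and 0.47.

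Counted over the 10 genes, 9 were higher and 0 lower in the mean over strains, where 31.2% of all probe sets were called higher and 30.4% lower. Their median difference was 0.25 (0.24 without AAP aerobic replicate 3), against 0.00 over all probe sets. In AAC 4 of 10 were higher and 0 lower, where 21.7% of probe sets were called higher and 22.8% lower. In AAP 6 of 10 were higher and 0 lower, where 21.2% were called higher and 17.2% lower. In NC all 10 were higher, where 22.2% were called higher and 28% lower. The only differences below 0 were those of NTH1 in AAC (-0.09) and TSL1 in AAP (-0.01), and neither passed. That of TSL1 in AAP was 0.07 without AAP aerobic replicate 3 and did not pass either. Without AAP aerobic replicate 3 the count in AAP was 8 higher and 0 lower, where 21.1% of probe sets were called higher and 20.8% lower, and in the mean over strains all 10 were higher, where 32.7% were called higher and 34.1% lower. The median difference of the 10 genes was 0.15 in AAC, 0.24 in AAP (0.28 without that array) and 0.35 in NC.

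In AAC the called genes were GPH1 (1.49), GSY1 (0.90), GLC3 (0.64) and GDB1 (0.16), none of which belongs to the trehalose branch. TPS1 (0.18) and TSL1 (0.15) had separated ranges there, anaerobic above aerobic as in 27.5% of all probe sets, and did not pass. Each passed in 4 of 25 alternatives, TSL1 also without AAP aerobic replicate 3. TPS2 (0.08), TPS3 (0.09) and NTH1 (-0.09) passed in none. In AAP, GPH1 (1.25), GSY1 (1.51), GLC3 (0.56), GDB1 (0.25), TPS2 (0.21) and TPS3 (0.30) were called. Without AAP aerobic replicate 3 these were 1.27, 1.40, 0.62, 0.27, 0.28 and 0.32, and NTH1 (0.24) and GSY2 (0.18) passed as well. In NC the trehalose genes TPS1, TPS2, TPS3, TSL1 and NTH1 were higher by 0.34, 0.47, 0.25, 0.33 and 0.22. The TPS1 call in NC rested on replicate 1 of the anaerobic cultures, which had 8.64, against 8.31 and 8.27 in the other anaerobic cultures and 8.10, 8.08 and 8.03 in the aerobic ones. Without that array the difference was 0.22 and did not pass. The calls of NTH1 in NC, GDB1 in AAC and TPS2 in AAP were lost in 5, 4 and 7 of 25 alternatives.

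Whether the response to oxygen differed between strains was tested as an interaction, and each difference that passed was negative, with a smaller oxygen effect in an amylase strain than in NC, or in AAC than in AAP. The rise of GLC3 was smaller in AAC than in NC by 0.78 on the log2 scale (interaction -0.78, SE 0.0931, limma adjusted p = 2.844e-04) and smaller in AAP than in NC (interaction -0.86, SE 0.0931, limma adjusted p = 8.309e-05, and -0.79 without AAP aerobic replicate 3). For GLC3 the aerobic levels of both amylase strains lay above those of NC, and the anaerobic levels below them. The rise of GSY1 was smaller in AAC than in NC (interaction -0.92, SE 0.1434, limma adjusted p = 2.506e-03) and smaller in AAC than in AAP (interaction -0.61, limma adjusted p = 0.02975, and -0.49 without that array). For GSY1 the anaerobic AAC arrays lay below those of AAP and NC, which overlapped each other. The aerobic AAC and AAP arrays overlapped with replicate 3 and did not without it.

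Of the trehalose genes, TPS2 had an interaction of -0.39 between AAC and NC (limma adjusted p = 0.03923), its oxygen effect being 0.08 in AAC, which did not pass, and 0.47 in NC. TSL1 had an interaction of -0.35 between AAP and NC (limma adjusted p = 0.02188, and -0.27 without AAP aerobic replicate 3). Its oxygen effect was -0.01 in AAP (0.07 without that array), which did not pass, and 0.33 in NC. GPH1 had an interaction of -0.43 between AAP and NC (limma adjusted p = 0.04681), which was -0.40 and did not pass without AAP aerobic replicate 3. The interactions of TPS2, TSL1 and GPH1, and that of GSY1 between AAC and AAP, were lost in 14, 5, 15 and 9 of 25 alternatives, and those of GLC3 with NC and of GSY1 between AAC and NC in none. In all, 3 of 10 genes had a smaller oxygen effect in AAC than in NC, where 1.2% of probe sets were called lower. The count was 3 of 10 in AAP against NC, with 4.47% of probe sets called lower, and 1 of 10 in AAC against AAP, with 2.15%. None of the 10 had a larger oxygen effect by these tests, where 1.67%, 8.02% and 1.4% of probe sets were called higher. Without AAP aerobic replicate 3 the count was 3 for AAP against NC, where 6.06% of probe sets were called higher and 3.86% lower, and 2 for AAC against AAP, where 1.95% were called higher and 3.26% lower. Between AAC and NC, where that array enters only through the shared spread, NTH1 (-0.31) and GSY2 (-0.29) also passed without it. The comparisons with NC share the NC arrays.

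**Figure D3:**
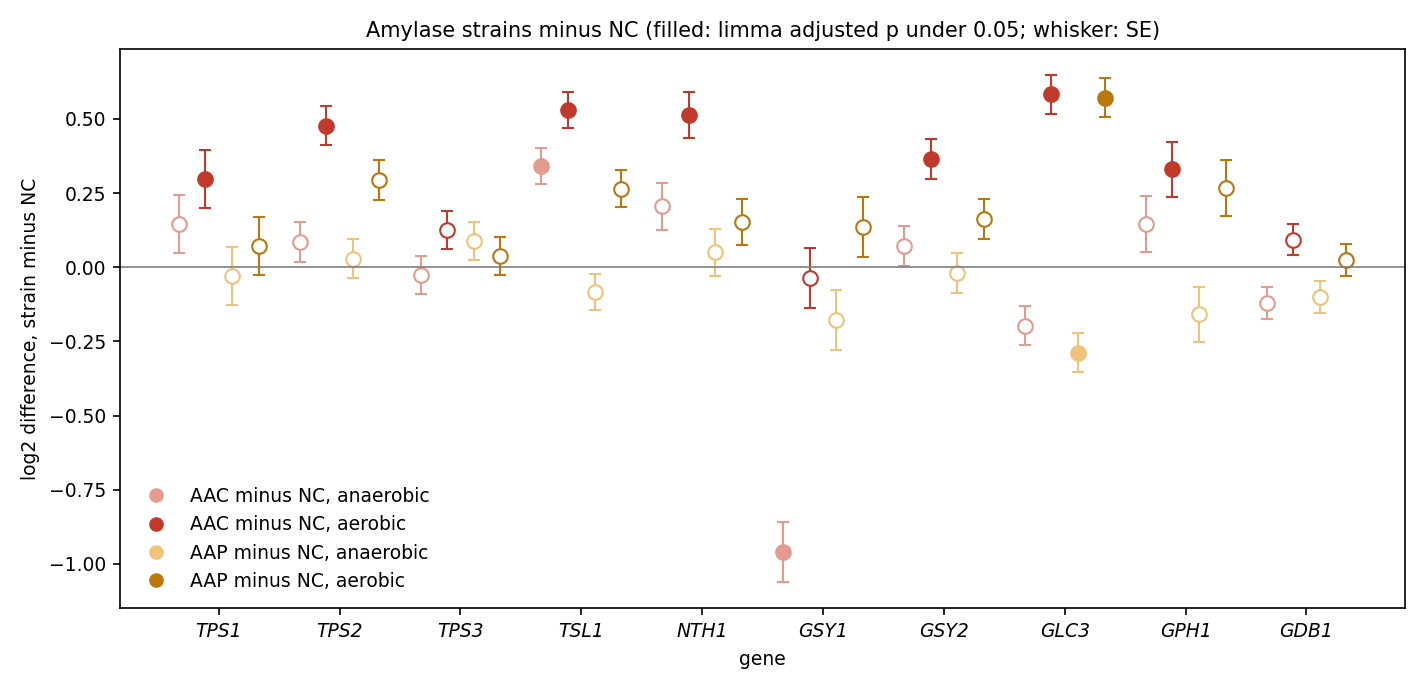
Log2 difference between strains (vertical axis) of each gene (horizontal axis), for AAC minus NC and AAP minus NC in anaerobic and aerobic cultures, with standard errors from the limma fit and filled points where the test passed. In anaerobic cultures GSY1 has the lowest AAC minus NC value (-0.96), and in aerobic cultures AAC minus NC is below 0 only for GSY1 (-0.04).

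With oxygen, AAC cultures had higher levels of most of these genes than NC cultures, in the trehalose and the glycogen branch alike. TSL1, a regulatory subunit of the trehalose synthase complex, had 7.40, 7.24 and 7.31 in AAC, against 6.85, 6.78 and 6.73 in NC, a rise of 0.53 (SE 0.0614, 1.44-fold, limma adjusted p = 1.745e-04). NTH1 had 7.35, 7.33 and 7.35 in AAC, against 6.82, 6.82 and 6.84 in NC, a rise of 0.51 (SE 0.0786, 1.43-fold, limma adjusted p = 1.260e-03). NTH1 encodes the enzyme that breaks trehalose down, and TSL1 a subunit of the complex that makes it. TPS2 had 7.29, 7.36 and 7.30 in AAC, against 6.88, 6.80 and 6.83 in NC, a rise of 0.48 (SE 0.0663, limma adjusted p = 7.597e-04).

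GLC3 was higher in aerobic AAC than in aerobic NC by 0.58 (SE 0.0659, limma adjusted p = 1.572e-04), the highest of the 10 differences. GSY2 had 6.50, 6.37 and 6.47 in AAC, against 6.13, 6.04 and 6.09 in NC, a rise of 0.36 (SE 0.0673, limma adjusted p = 3.138e-03). For all these genes the AAC arrays lay above the NC arrays with no overlap. So did 20.6% of all probe sets, and 31.1% had all AAC arrays below. GPH1 rose by 0.33 (limma adjusted p = 0.02431), from NC values near background, and TPS1 by 0.30 (limma adjusted p = 0.04478). The GPH1 call was lost on leaving out any 1 of the 6 arrays compared, and that of TPS1 was lost in 12 of 25 alternatives. TPS3 (0.13), GDB1 (0.09) and GSY1 (-0.04) did not pass. That made 7 of 10 higher and 0 lower, where 9.42% of probe sets were called higher and 9.99% lower, and the median difference was 0.35, against -0.02 over all probe sets.

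Other genes moved in the same comparison. Of 14 general stress genes, 12 were higher and 0 lower in aerobic AAC than in aerobic NC, among them the small heat shock protein gene HSP12 (1.41), RTC3 (1.36), TMA10 (1.14) and the heat shock gene HSP42 (0.73). The mean level of those 14 genes was 7.66 to 7.79 over the AAC arrays, against 7.04 to 7.09 over the NC arrays. Of 6 genes repressed by glucose, MLS1 and JEN1 were higher, although MLS1 was above background on 2 of 3 AAC arrays and on 0 of 3 NC arrays. FBP1, another of the 6, was below background on all arrays. The mean level of the 6 was 5.86 to 5.87 over the AAC arrays, against 5.63 to 5.69 over the NC arrays. The part of either in the differences of the storage carbohydrate genes was not tested.

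Aerobic AAP cultures were closer to NC. GLC3 was higher in AAP by 0.57 (SE 0.0659, 1.49-fold, limma adjusted p = 8.215e-04) and by 0.50 without replicate 3, where 0.2% of probe sets were called higher and 0.4% lower. This call was lost when only the groups compared entered the fit. It was the 1 gene of 10 called, where 0.146% of probe sets on all arrays were called higher and 0.0546% lower, and the median difference of the 10 was 0.16 (0.18 without replicate 3). Between the amylase strains, TSL1 was higher in aerobic AAC than in aerobic AAP by 0.27 (SE 0.0614, limma adjusted p = 0.03517) and NTH1 by 0.36 (SE 0.0786, limma adjusted p = 0.03168). NTH1 had 7.35, 7.33 and 7.35 in AAC, against 6.84, 6.87 and 7.23 in AAP, the last value being that of replicate 3. The calls of TSL1 and NTH1 were lost in 8 and 6 of 25 alternatives. These 2 of 10 genes compare with 2.38% of probe sets called higher and 1.58% lower. Without replicate 3, TPS2 (0.26), TSL1 (0.34), NTH1 (0.49) and GSY2 (0.25) were higher and GSY1 (-0.29) was lower, where 12.5% of probe sets were called higher and 15.7% lower. With the replicate number as a block, 140 probe sets were called in this comparison, against 218 without it, and the same number of the 10 genes passed.

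Without oxygen, 2 of the 10 genes differed between AAC and NC, 1 between AAP and NC and 3 between AAC and AAP, in both directions. Of 5498 probe sets, 660, 1153 and 1814 were called in these comparisons. The counts for AAP against NC and for AAC against AAP did not exceed the share over all probe sets. GSY1 was lower in AAC than in NC by 0.96 on the log2 scale (difference -0.96, SE 0.1014, 1.95-fold, limma adjusted p = 2.041e-05) and lower in AAC than in AAP (difference -0.78, SE 0.1014, limma adjusted p = 1.053e-04). TSL1 had 7.42, 7.46 and 7.50 in anaerobic AAC, 7.04, 7.07 and 7.001 in anaerobic AAP and 7.17, 7.12 and 7.08 in anaerobic NC. It was higher in AAC than in NC by 0.34 (limma adjusted p = 2.020e-03) and than in AAP by 0.43 (limma adjusted p = 2.391e-04), with no overlap in either. All AAC arrays lay above those of NC in 14.3% of all probe sets, and above those of AAP in 20.1%. They lay below in 15% and 29.9%. TSL1 was thus higher in AAC than in NC both with and without oxygen.

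GLC3 was lower in anaerobic AAP than in anaerobic NC (difference -0.29, SE 0.0659, limma adjusted p = 8.774e-03), opposite in sign to its difference with oxygen. GPH1 was higher in anaerobic AAC than in anaerobic AAP by 0.31 (limma adjusted p = 0.02176), although the lowest AAC array, at 7.24, lay below the highest AAP array, at 7.26, and the call was lost in 4 of 25 alternatives. Against NC, AAC had 1 gene higher and 1 lower, where 6.71% and 5.29% of probe sets were called, and AAP had 0 higher and 1 lower, where 12.9% and 8.06% were called. Against AAP, AAC had 2 higher and 1 lower, where 13.3% and 19.7% were called. AAP aerobic replicate 3 enters these tests only through the shared spread. Without it, NTH1 also passed as higher in AAC than in NC (0.20) and than in AAP (0.15). GLC3 then passed as lower in AAC than in NC (-0.20). The general stress genes were higher in AAC here too, 8 of 14 against NC and 11 of 14 against AAP, and in AAP 3 of 14 were lower than in NC.

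The order of the 6 groups differed among the genes. NC aerobic had the lowest mean of 9 of the 10 genes, the exception being GSY1, for which AAC aerobic was lowest at 6.30, with ranges that overlapped those of NC aerobic at 6.34. AAC anaerobic had the highest mean of TPS1, TPS2, TSL1, GSY2 and GPH1. NC anaerobic was highest for GSY1, GLC3 and GDB1, and AAP anaerobic for TPS3. NTH1 averaged 7.25 ± 0.0287 in AAC anaerobic cultures and 7.34 ± 0.0106 in AAC aerobic cultures (SD, n = 3 each), which were its highest group, and that difference did not pass the test.

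**Figure D4:**
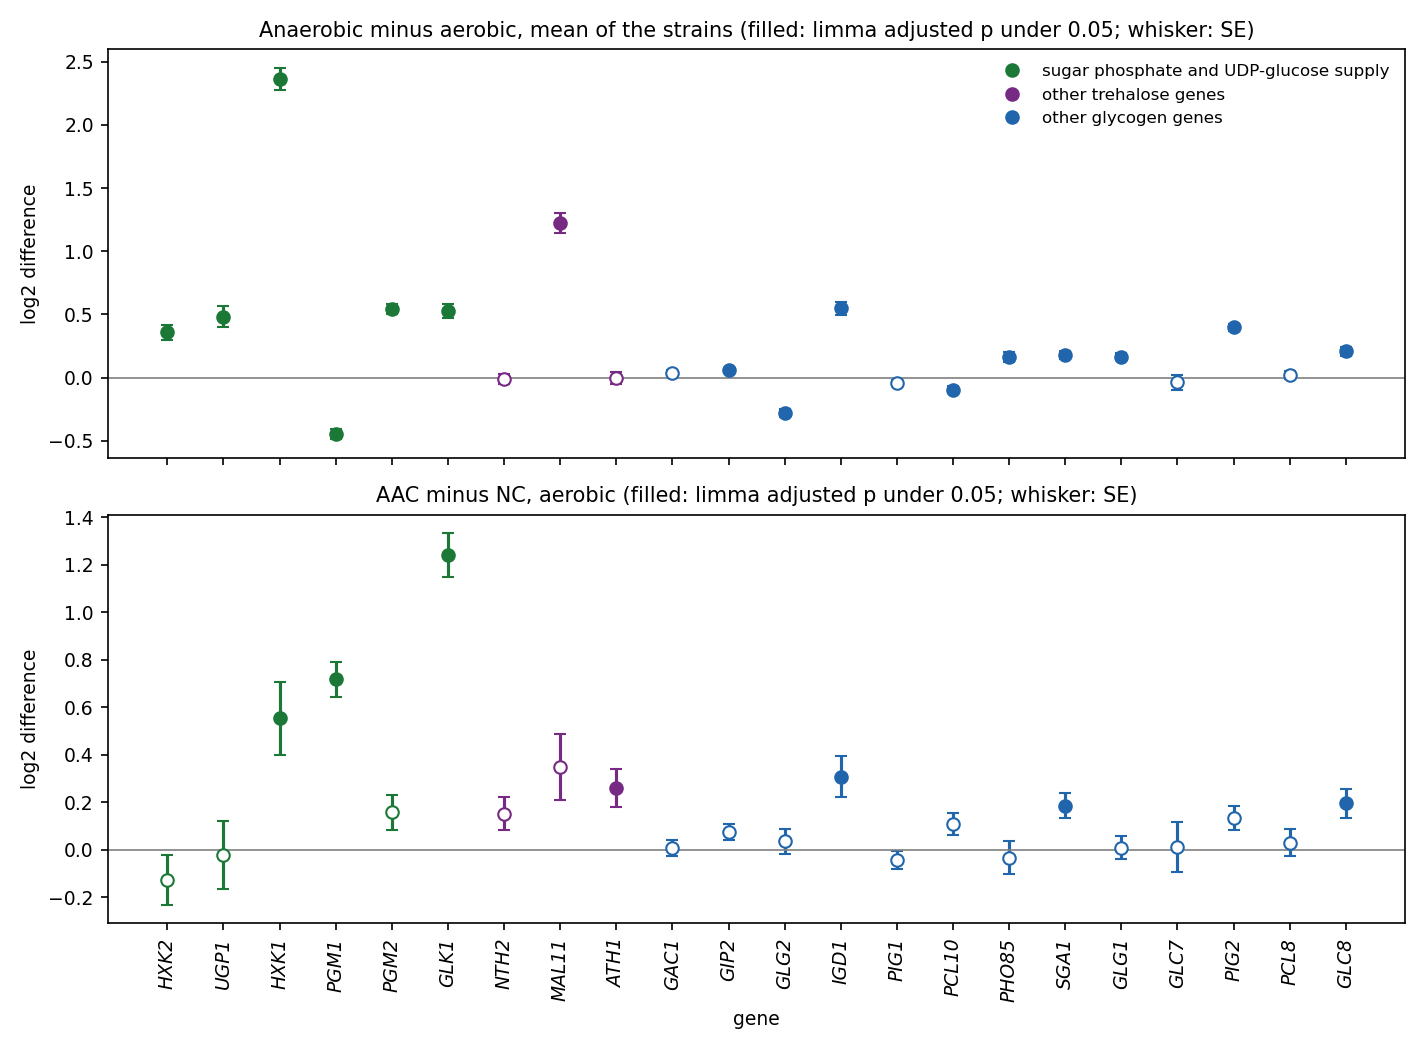
Log2 differences (vertical axis) of other genes of sugar phosphate supply, trehalose and glycogen (horizontal axis), for anaerobic minus aerobic over the strains (top) and AAC minus NC in aerobic cultures (bottom), with standard errors from the limma fit and filled points where the test passed. HXK1 has the highest oxygen effect at 2.36, and GLK1 the highest difference between AAC and NC at 1.24.

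Genes that supply glucose phosphates and UDP-glucose were called higher without oxygen in 5 of 6 cases and lower in 1, with and without AAP aerobic replicate 3, where 31.2% of all probe sets were called higher and 30.4% lower on all arrays. The hexokinase gene HXK1 rose by 2.36 (SE 0.0896), the phosphoglucomutase gene PGM2 by 0.54 (SE 0.0417) and the glucokinase gene GLK1 by 0.53 (SE 0.0528), while PGM1, the other phosphoglucomutase gene, fell by 0.45 on the log2 scale (difference -0.45, SE 0.0422). HXK1 rose by 3.33 in NC, 2.11 in AAC and 1.64 in AAP, and GLK1 by 1.13, 0.22 and 0.23. The last 2 did not pass, and did without AAP aerobic replicate 3. Interactions with NC passed for HXK1 (-1.22 in AAC, -1.69 in AAP) and GLK1 (-0.91 and -0.90). That of PGM2 passed in AAP (-0.61), and those of HXK2, UGP1 and PGM1 did not pass. In aerobic AAC against NC, GLK1 (1.24), PGM1 (0.72) and HXK1 (0.55) were higher. PGM1 was higher in AAC than in NC without oxygen too, by 0.60.

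Of 3 other trehalose genes, MAL11, which encodes an alpha-glucoside transporter that also carries trehalose, rose without oxygen by 1.22 (SE 0.0809). NTH2, the paralog of NTH1, and the acid trehalase gene ATH1 had mean differences of -0.01 and -0.00, with signs that differed between strains. NTH2 had 0.16 in NC, -0.08 in AAC and -0.12 in AAP (-0.03 without AAP aerobic replicate 3). ATH1 had 0.16, -0.09 and -0.08 (0.04 without that array). None of these passed on all arrays, and both NC differences passed without that array. Of 13 other glycogen genes, 7 were higher and 2 lower, with and without AAP aerobic replicate 3, beside the same 31.2% and 30.4%. The 7 include GIP2, which was below background on all arrays, and SGA1, which was above it only in anaerobic AAC cultures. PIG2, a putative targeting subunit of the phosphatase that acts on glycogen synthase, rose by 0.40, and IGD1, an inhibitor of Gdb1, rose by 0.55. IGD1 rose by 0.87 in NC, 0.61 in AAC and 0.17 in AAP. The last did not pass, and did without AAP aerobic replicate 3 (0.24). PIG2 passed in each strain. Both had a smaller oxygen effect in AAP than in NC (interactions -0.30 for PIG2 and -0.70 for IGD1). The glycogenin genes, whose products prime glycogen, moved in opposite directions, GLG1 by 0.16 and GLG2 by -0.28. PCL10, a cyclin of the kinase Pho85 that phosphorylates glycogen synthase, was lower (-0.09). GAC1 was below background on all arrays.

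Of 17 measured regulators of cAMP, PKA and the stress response, 6 were higher and 3 lower without oxygen in the mean over strains. The share higher was near the 31.2% of all probe sets, and the share lower was below the 30.4%. Without AAP aerobic replicate 3 the counts were 6 and 4. The kinase gene YAK1 (0.35), RAS2 (0.28), the adenylate cyclase gene CYR1 (0.29) and the PKA subunit gene TPK2 (0.24) were higher, and the phosphodiesterase gene PDE1 (-0.22), RIM15 (-0.09) and GIS1 (-0.09) were lower. The general stress genes did not move one way, with 7 of 14 higher and 4 lower, and 8 and 4 without that array, where 31.2% and 30.4% of all probe sets were called. HSP26 (1.14) and TMA10 (0.94) were among the higher, and SOD2 (-2.42), HSP12 (-0.53), HSP78 (-0.52) and CTT1 (-0.25) were lower. These means hide differences between strains. TMA10 averaged 8.82 in anaerobic and 6.51 in aerobic NC cultures, 8.34 and 7.65 in AAC, and 7.30 and 7.49 in AAP. HSP12 averaged 7.74 and 7.81 in NC, 8.98 and 9.23 in AAC, and 7.52 and 8.77 in AAP. In AAP against NC, 6 of 14 had a lower oxygen effect and 0 a higher one, beside 4.47% and 8.02% of probe sets. Without AAP aerobic replicate 3 the counts were 5 and 0, beside 3.86% and 6.06%.

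The median profile of the 10 genes over the 6 group means was highest in AAC anaerobic cultures, 0.17 above its own mean, and lowest in NC aerobic cultures, at -0.30. Among 5010 probe sets of other genes with a mean above background, those nearest to it by root mean square difference over the 6 groups were MET16 (0.0505), NCR1 (0.0512), RAS2 (0.0513), AIM19 (0.0529) and KIC1 (0.0534). TPS1 lay at 0.0478 from the same profile, whereas GSY1 (0.666), GPH1 (0.608) and GLC3 (0.339) were far from it. The 10 genes enter the median themselves, so their distances do not compare with those of the other genes. The profile does not describe GSY1, GPH1 and GLC3. Without AAP aerobic replicate 3, AIM19, RAS2 and KIC1 were ranked 1, 2 and 3, and MET16 and NCR1 were ranked 18 and 42.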

How the data were processed

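RNA of 18 cultures was hybridised to Affymetrix yeast arrays. The authors deposited log2 signals (the scale was inferred from values of 4.85 to 12.81). The submitters' processing notes name PLIER and R 2.10.1. How background was corrected, how arrays were normalized and which logarithm was taken is not given in the sources used here, and folds assume base 2. Array medians lay between 7.08 and 7.13. Of the probe sets, 7244 had 1 gene symbol, 1 had several and 3683 had none, and 5498 S. cerevisiae probe sets were tested. Symbols were updated for 12 of them through the RefSeq table of assembly R64. No further normalization was applied.

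Samples were grouped by their titles. A model with 1 mean per group was fitted with limma 3.58.1 in R 4.3.3 (lmFit and eBayes, 12 residual degrees of freedom) for 13 contrasts, two-sided, with Benjamini-Hochberg adjustment over all 5498 probe sets and a threshold of 0.05. The fit was tested on simulated data. The genes, the lists and the rules were chosen with earlier results of these data known. All 10 genes are named, with up to 4 genes of each other list by smallest p, those opposite to their list, and 5 genes by likeness. The number of arrays, 3 per group, limits the precision. Same-numbered arrays deviated together, with every correlation over 0.1, only for AAC with NC aerobic (0.126, 0.233 and 0.326) and AAC with AAP aerobic (0.168, 0.249 and 0.456). The labels do not say what a number marks. Alternatives were other scalings, a filter on dim probe sets, removal of a length trend, a replicate block, fits on only the groups compared, and leaving out each array.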

Additional observations from a re-analysis of the deposited data

Results flagged for a closer look

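Of the 10 genes, 7 differences in the response to oxygen between strains passed the test of the difference itself, and all were negative, a smaller oxygen effect in the strain named first. TPS2 in AAC and TSL1 in AAP did not pass as rises themselves. Between AAC and NC these were TPS2 (-0.3921), GSY1 (-0.9243) and GLC3 (-0.7798). Between AAP and NC they were TSL1 (-0.3485), GLC3 (-0.8587) and GPH1 (-0.4267), and between AAC and AAP it was GSY1 (-0.6104). The values of GLC3, TSL1 and GPH1 between AAP and NC were -0.79, -0.27 and -0.40 without AAP aerobic replicate 3, the last no longer passing, and that of GSY1 between AAC and AAP was -0.49.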

How the results depend on the processing

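Of 130 pairs of a gene and a contrast, 52 passed the threshold, and 37 of these passed in the same direction under all 25 alternatives. The other 15 were lost in 1 or more, and 28 that had not passed did so in 1 or more. The cause was not tested. The sign changed in 1 or more alternatives for 19 pairs, none of which had passed. In 1 of them the opposite sign passed the threshold: GDB1 between AAC and AAP without oxygen was -0.02, and 0.15 with a length trend removed. With only the groups compared in the fit, the count of genes called was 0 for AAP against NC and 0 for AAC against AAP with oxygen, and the interactions gave 1 for AAP against NC and 0 for AAC against AAP. With a length trend removed, the count without oxygen was 4 for AAP against NC and 8 for AAC against AAP (7 higher), and 0 for the interaction of AAC against AAP.

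Leaving out 1 array at a time, the count called for the oxygen effect ran from 3 to 5 in AAC, 5 to 8 in AAP, 8 to 10 in NC and 9 to 10 in the mean. With oxygen it ran from 5 to 7 for AAC against NC, 1 to 1 for AAP against NC and 0 to 5 for AAC against AAP, and without oxygen from 2 to 4, 1 to 1 and 2 to 4. The interactions ran from 2 to 5, 1 to 3 and 0 to 2. With the replicate number as a block, 7 genes were called for AAC against NC and 2 for AAC against AAP with oxygen, and the oxygen effect gave 5 in AAC and 7 in AAP. Other scalings moved the median of all probe sets by at most 0.0343. Over the alternatives, the adjusted p of AAC against NC with oxygen ran from 3.699e-03 to 0.1525 for TPS1 and from 2.521e-04 to 0.0773 for GPH1, and that of GLC3 for AAP against NC from 2.907e-04 to 0.2668. It ran from 1.882e-04 to 0.3597 for TSL1 and from 6.301e-06 to 0.3537 for NTH1 in AAC against AAP with oxygen, and from 1.853e-02 to 0.1148 for the interaction of GPH1 between AAP and NC. Of the calls lost, GDB1 in AAP was lost only with the length trend removed (difference 0.09).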
